A study of Mus musculus with 4 samples.

Results

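Gamma crystallins are small, monomeric structural proteins of the lens, built from repeated Greek key motifs. They are made in large amounts by lens fibre cells, where their dense and ordered packing supports transparency and a high refractive index. *Cryga* to *Crygf* are known for expression in the fibres of the embryonic and young lens, *Crygs* encodes the gamma crystallin that gains weight in later cortical fibres, and *Crygn* is a divergent member. Variants in several of these genes cause inherited cataract in mice and people.

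The 8 genes *Cryga*, *Crygb*, *Crygc*, *Crygd*, *Cryge*, *Crygf*, *Crygn* and *Crygs* were taken by name from a table of 56748 genes, and all 8 were found. RNA-sequencing compared lenses of Fsp1-cre;Pdgfrb+/D849V mice (mutant, 2 libraries) with lenses labelled Fsp1-cre;Pdgfrb+/+ (control, 2 libraries), all from mice aged 10 to 12 days. The D849V allele is an activated form of the receptor PDGFRβ, expressed from its own locus after Cre recombination. Cre was driven by the promoter of Fsp1 (S100a4), so recombination followed the activity of that promoter and not of a lens gene, and all groups as labelled carried Fsp1-cre. Per the study's methods the line was on an FVB/N background with a tdTomato reporter and each library pooled lenses from several mice. The methods also describe the control pools as a mix that included mice without Cre and mice with the unrecombined D849V allele, whereas the labels give 1 control genotype. A table of expression per gene cannot tell the D849V allele from the wild-type allele. The comparison asked whether hyperactive PDGFRβ was accompanied by early changes in the lens transcriptome. Nothing in the labels says that mice were shared or not shared between pools. The p-values rest on the spread between these 4 pools, drawn for each gene toward the spread of genes of similar level.

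Values are FPKM, fragments per kilobase of gene divided by a denominator for each library, and fold changes are mutant over control. The libraries held between 18561682 and 18878768 whole reads recovered from the FPKM. The denominators did not follow this depth. Mutant 1 had the most reads but the smallest denominator, 17828000, and control 1 had the fewest reads but a denominator of 19445800. Median-ratio factors computed from the FPKM were 1.00588 in every library, so the deposited values were already level on that scale. Lens identity was seen in the fibre markers, whose 15 genes summed to between 8950 and 10329 FPKM, although *Lim2* was listed at 0 in all 4 libraries, and in the 8 epithelial markers at 185 to 219 FPKM. Summed markers of other tissues were low: retina 1.13 to 3.40 FPKM, pigment cell and ciliary body 0.661 to 1.36, cornea 0.181 to 0.898, endothelium 2.34 to 3.84, blood 17.2 to 34.9, mesenchyme 13.9 to 16.4 and macrophage 0.465 to 1.504. *Xist* was lower in mutant 1 (7.62 FPKM) and control 2 (5.56) than in mutant 2 (13.1) and control 1 (15.6), and *Eif2s3y* of the Y chromosome was higher in the former pair (7.10 and 7.13) than in mutant 2 (4.82) and control 1 (3.02), so the pools differed in their sex markers within each genotype.

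In the deposited table, whose positions are on mm39, 5 gamma crystallin genes lay within 54.8 kb of chromosome 1, all on the minus strand. In order of position these were *Cryge* (ENSMUSG00000070870, chr1:65087713-65090308), *Crygd* (ENSMUSG00000067299, chr1:65101031-65102611), *Crygc* (ENSMUSG00000025952, chr1:65110684-65112848), *Crygb* (ENSMUSG00000073658, chr1:65119378-65121447) and *Cryga* (ENSMUSG00000044429, chr1:65139548-65142532). *Crygf* (ENSMUSG00000025945, chr1:65965679-65967466) lay 823 kb away on the plus strand, with 12 other rows of the table between. *Crygn* (ENSMUSG00000038135, chr5:24956001-24963006) and *Crygs* (ENSMUSG00000033501, chr16:22623953-22630327) lay on other chromosomes, both on the minus strand. The main coding transcript had 4 exons in *Crygn* and 3 exons in each other gene of the GENCODE annotation. The cluster held 2 further rows, the processed pseudogene *Gm7329* and the protein-coding model *Gm28845*, which overlaps *Cryga* on the same strand, and both were listed at 0 in all 4 libraries.

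The promoters of the 6 chromosome 1 genes are shown because these genes share some letters just upstream of their start, although not every marked motif occurs in each. They are taken from RefSeq on GRCm38.p6, another build than the table, and no position was converted between builds. Each runs 5′ to 3′ on the gene's strand from base -90 to base -13 relative to the RefSeq start, except that of *Crygc*. Another annotated transcript of *Crygc* starts 157 bases upstream, and only 30 bases, from -68 to -39, are printed for it. That stretch still lies downstream of the other start, and it leaves out the TATATA of *Crygc* at -29 to -24. Capitals mark matches to TGC followed after any 7 bases by GCA, the outer letters of sites bound by Maf factors, to CTTTTGT, a form of the letters bound by Sox proteins, and to TATATA, a form of the TATA box. Maf and Sox proteins are known activators of crystallin genes. The windows lie at chr1:65103376-65103453 for *Cryga*, chr1:65082303-65082380 for *Crygb*, chr1:65073571-65073600 for *Crygc*, chr1:65063453-65063530 for *Crygd* and chr1:65051176-65051253 for *Cryge*, all on the minus strand, and at chr1:65926432-65926509 on the plus strand for *Crygf*.
Cryga: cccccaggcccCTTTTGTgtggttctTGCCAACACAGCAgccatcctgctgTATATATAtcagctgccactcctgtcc
Crygb: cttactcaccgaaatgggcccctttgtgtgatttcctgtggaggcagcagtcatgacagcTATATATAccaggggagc
Crygc: ccCTTTTGTgcagttccgctaacgcagcaa
Crygd: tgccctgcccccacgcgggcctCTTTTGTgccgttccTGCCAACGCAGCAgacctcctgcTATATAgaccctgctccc
Cryge: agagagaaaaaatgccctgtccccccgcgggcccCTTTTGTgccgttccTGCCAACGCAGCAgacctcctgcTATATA
Crygf: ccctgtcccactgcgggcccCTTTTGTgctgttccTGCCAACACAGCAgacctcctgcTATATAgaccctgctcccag

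In the 250 bases upstream of the start, searched on both strands, the Maf-type letters were found in 4 of the 8 genes (*Cryga*, *Crygd*, *Cryge* and *Crygf*) and in 6.17% of 32851 promoters. CTTTTGT was found in 6 of the 8 genes, all but *Crygb* and *Crygs*, and in 4.40% of promoters. TATATA was found in 7 of the 8 genes, all but *Crygs*, and in 5.25% of promoters, whereas the more usual TATAAA was found in *Crygs* alone and in 12.4% of promoters. No match overlapped a match to a different motif, and the run TATATATA of *Cryga* and *Crygb* holds overlapping matches to TATATA. In *Crygd*, *Cryge* and *Crygf* the Maf-type letters lay closest to the start in *Cryge* (-41 to -29) and at -53 to -41 and -55 to -43 in the others, relative to each gene's own annotated start. The TATATA that follows was shifted likewise, at -18 to -13 in *Cryge* and at -30 to -25 and -32 to -27 in the others. The same bases, gacctcctgc, lie between both motifs in each, so their spacing is alike and the offset follows the annotated start. These matches describe letters in the reference genome and say nothing of binding in these lenses.

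The coding sequences of *Cryge* and *Crygf* were 98.1% identical, with 10 of 522 aligned bases different. *Crygd* was 91.6% identical to *Cryge* and 90.6% to *Crygf*, and the remaining pairs among *Cryga* to *Crygf* were between 78.9% and 84.1% identical. *Crygs* and *Crygn* stood apart, at 55.1% to 59.8% identity with every other member and with each other. Upstream of the start the same close pair stood out, with 80.7% identity between the *Cryge* and *Crygf* promoters against 50% to 65.5% for the other pairs among the 6 chromosome 1 genes.

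**Figure D1:**
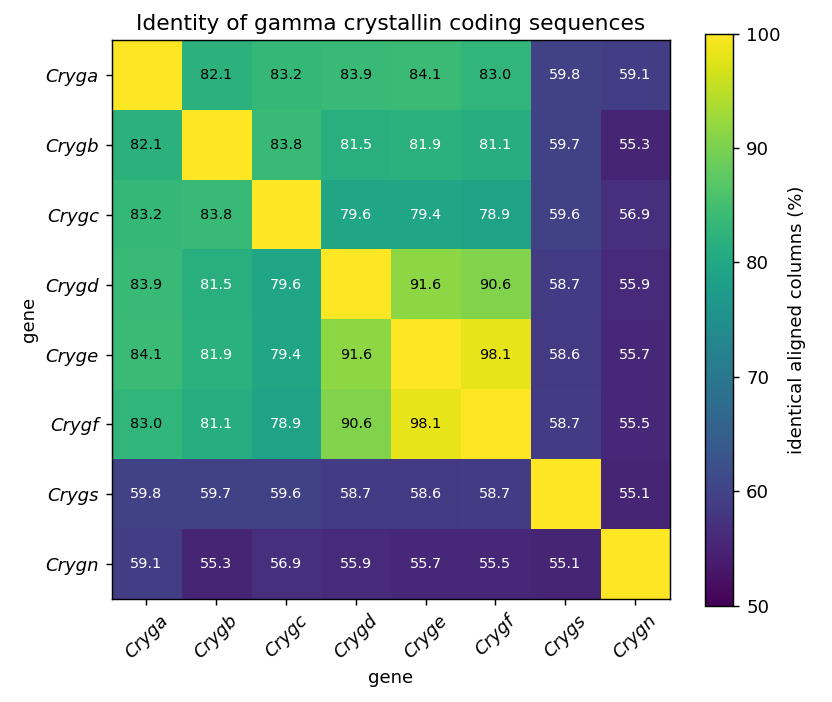
Identity of the coding sequences of the 8 gamma crystallin genes, as percent of aligned columns, with genes on both axes and colour for the percent. *Cryge* and *Crygf* share 98.1% of columns, *Crygd* shares 91.6% with *Cryge*, and *Crygs* and *Crygn* share under 60% with every other gene.

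This likeness, and for *Cryga* the overlap with *Gm28845*, limits how far reads can be placed on one gene. Of the 31-base words in the main transcript, 67.6% of those of *Cryge*, 53.8% of *Cryga*, 49.6% of *Crygf*, 42.7% of *Crygd*, 34.9% of *Crygc* and 31.6% of *Crygb* also occurred in a transcript of another gene, and 0% of those of *Crygn* and *Crygs*. For words of 150 bases the shares were 6.43% for *Cryge*, 0% for *Crygf*, 6.68% for *Crygd*, 15.6% for *Crygc* and 14.8% for *Crygb*, but still 42.2% for *Cryga*. The partner of *Cryga* was *Gm28845*, the model that overlaps it on the same strand, which held all of its shared 31-base words. The largest share of *Cryga* words of 31 bases found in another gamma crystallin gene was 13.6%, in *Crygc*. For words of 75 and 150 bases *Gm28845* was the only partner of *Cryga*. The read length and the treatment of reads that match several genes are not given in the sources used here, so levels of *Cryga* to *Crygf* are uncertain to that extent, while *Crygs* and *Crygn* shared no such word.

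Gamma crystallin transcripts made up a large part of the lens transcriptome in every library. They took 23.15% of recovered reads in mutant 1 (95% Wilson interval 23.13 to 23.17), 19.97% in mutant 2 (19.96 to 19.99), 21.49% in control 1 (21.47 to 21.51) and 21.61% in control 2 (21.59 to 21.63), where the intervals cover counting error only. The 2 mutant libraries were the highest and the lowest of the 4, and the control libraries lay between them. Per kilobase, which gives short genes more weight, their share of the summed FPKM was 43.3% and 39.5% in the mutant libraries against 41.99% and 41.66% in the controls. Summed gamma crystallin FPKM was 320904 and 249900 in the mutant libraries against 270315 and 286159 in the controls. The mean log2 sum of the mutants minus that of the controls was 0.03. This difference was -0.0051 after scaling to total reads. It was -0.15 without mutant 1, -0.015 without control 1, 0.067 without control 2 and 0.21 without mutant 2. Relative to the summed FPKM of 8 alpha and beta crystallins, gamma crystallins stood at 1.22 and 1.08 in the mutant libraries against 1.21 and 1.13 in the controls, so the genotypes overlapped on this scale as well.

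*Crygb* was the gene with the highest FPKM in the whole table in each of the 4 libraries, at 90382 and 73799 in the mutant libraries against 79415 and 82668 in the controls. *Crygc* followed within the family at 50554 and 40189 in the mutant libraries against 44824 and 44805 in the controls. The mutant values of both genes enclosed the control values. *Crygd*, which is mutated in several forms of inherited cataract, measured 47853 and 39476 FPKM in the mutant libraries against 36334 and 45150 in the controls, and the groups overlapped.

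*Crygs*, the later-expressed member, measured 37319 and 25319 FPKM in the mutant libraries against 32182 and 35741 in the controls, with mutant 1 the highest and mutant 2 the lowest. *Crygn* was far below the rest, at 1825 and 1734 FPKM in the mutant libraries against 1773 and 1834 in the controls, and had the narrowest spread of the family. Even so it ranked 21st of 56748 genes by mean FPKM, and it rested on 26090 to 27656 reads per library, so counting error was small for every member.

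*Cryga* measured 26756 and 22076 FPKM in the mutant libraries against 19774 and 20771 in the controls. Both mutant values lay above both control values, and *Cryga* was the 1 member of 8 whose groups did not overlap. Among all 15997 genes tested, 36.6% did not overlap between the groups, and 18.2% did so with the mutant higher and 18.3% with the mutant lower, so 1 of 8 is no more than the background. *Cryge* measured 38802 and 23031 in the mutant libraries against 32196 and 25488 in the controls, and *Crygf* measured 27412 and 24276 in the mutant libraries against 23818 and 29703 in the controls. In both genes the groups overlapped.

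**Figure D2:**
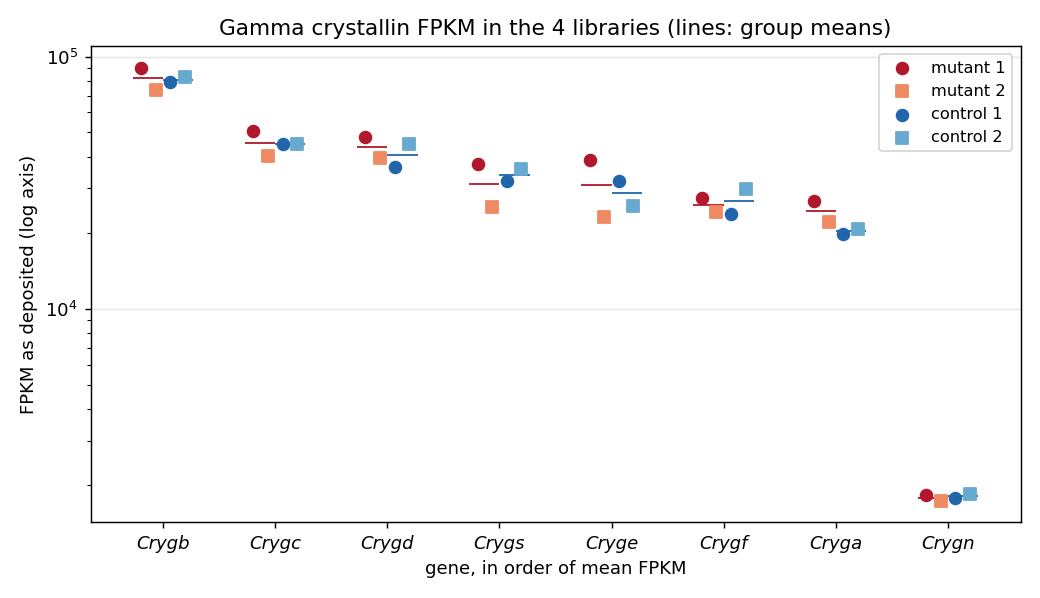
FPKM of the 8 gamma crystallin genes on a log axis, in order of mean FPKM, with 1 point for each of the 4 libraries and lines for the group means. The mutant and control points overlap for every gene but *Cryga*, whose mutant libraries at 26756 and 22076 lie above the controls at 19774 and 20771.

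By mean FPKM over the 4 libraries the order was *Crygb*, *Crygc*, *Crygd*, *Crygs*, *Cryge*, *Crygf*, *Cryga* and *Crygn*. *Crygb* exceeded *Crygc* in all 4 libraries by 1.77 to 1.85 times, *Crygd* exceeded *Crygs* in all 4 by 1.13 to 1.56 times, and *Cryga* exceeded *Crygn* in all 4 by 11.2 to 14.7 times. *Crygf* exceeded *Cryga* in all 4, but by as little as 1.02 times. Neighbours that were not ordered alike in the 4 libraries were *Crygc* and *Crygd* (in this order in 3 of 4), *Crygs* and *Cryge* (2 of 4) and *Cryge* and *Crygf* (2 of 4).

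The order also depended on the length by which reads were divided. The deposited table uses 1028 bases for *Crygd*, whereas its main coding transcript in the GRCm38 annotation, which lists 3 transcripts of which 1 retains an intron, has 613 bases. For *Crygc* the lengths were 786 and 612 bases, for *Cryge* 723 and 631, for *Cryga* 730 and 625 and for *Crygn* 802 and 768, and for *Crygb*, *Crygf* and *Crygs* they were equal. Divided by the main coding transcript, mean levels were 81566 FPKM for *Crygb*, 70775 for *Crygd*, 57913 for *Crygc*, 34236 for *Cryge*, 32640 for *Crygs*, 26302 for *Crygf*, 26098 for *Cryga* and 1871 for *Crygn*. *Crygd* thereby moved above *Crygc* in 4 of 4 libraries, *Cryge* moved above *Crygs* in 3 of 4, and *Crygf* exceeded *Cryga* in 2 of 4 libraries. Comparisons of one gene between libraries do not depend on this length.

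**Figure D3:**
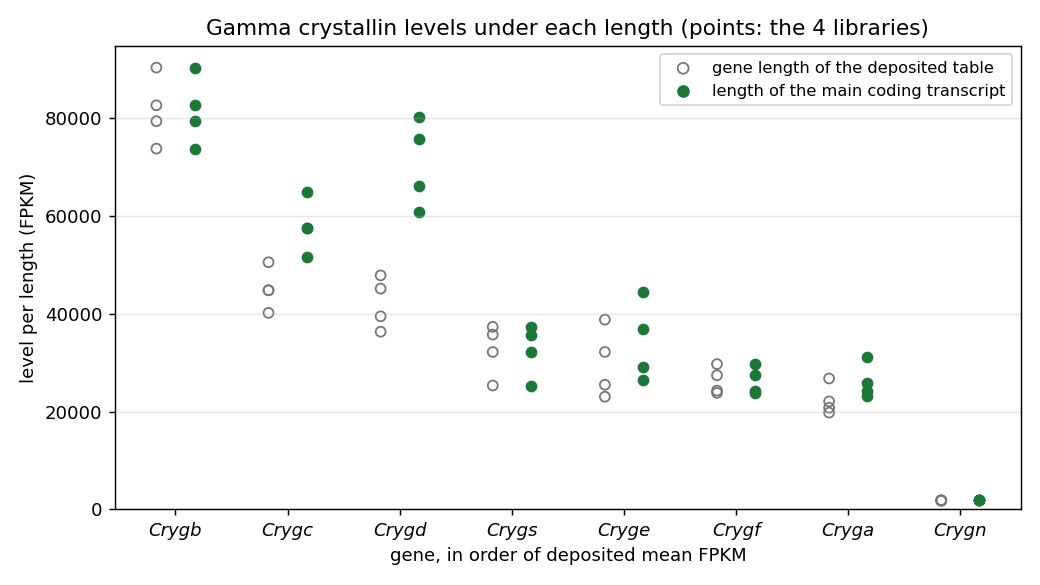
Levels per length of the 8 gamma crystallin genes in FPKM, with 1 point for each of the 4 libraries, computed with the gene length of the deposited table (open) and with the length of the main coding transcript (filled). *Crygd* moves from a mean of 42203 to 70775 and passes *Crygc*, while *Crygb*, *Crygs* and *Crygf* stay in place.

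Within the family, the shares of *Crygb* and *Crygc* were similar in the 4 libraries, while that of *Cryge* varied more. *Cryge* gave 12.1% and 9.22% of summed gamma crystallin FPKM in the mutant libraries against 11.9% and 8.91% in the controls. *Crygd* gave 14.9% and 15.8% in the mutant libraries against 13.4% and 15.8% in the controls. *Crygb* gave 28.2% and 29.5% of summed gamma crystallin FPKM in the mutant libraries against 29.4% and 28.9% in the controls, and *Crygc* gave 15.8% and 16.1% against 16.6% and 15.7%. The share of *Cryga* was 8.34% and 8.83% in the mutant libraries against 7.32% and 7.26% in the controls, and that of *Crygs* was 11.6% and 10.1% in the mutant libraries against 11.9% and 12.5% in the controls. The groups did not overlap for these 2 of the 8 shares, with *Cryga* 1.30 percentage points higher and *Crygs* 1.32 percentage points lower in the mutant mean. Over all genes tested, 36.6% did not overlap in FPKM, so 2 of 8 is no more than that background. Shares of one total are tied to each other, and 2 libraries against 2 cannot reach an exact permutation p below 1 in 3, so no test was made on them.

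The one member pair whose balance moved most was *Cryge* and *Crygf*, and in both genotypes the library numbered 1 stood above the library numbered 2. The ratio of *Cryge* to *Crygf* FPKM was 1.42 in mutant 1 and 1.35 in control 1, but 0.949 in mutant 2 and 0.858 in control 2. Of the 28 pairs of members this had the widest range over libraries, 0.72 on the log2 scale, whereas the mean log2 difference between mutant and control was 0.11. The pattern was noticed after the values were seen. The sum of both genes was steadier between the controls, at 66214 and 47307 FPKM in the mutant libraries against 56014 and 55190 in the controls (56761 ± 13369 and 55602 ± 582, SD, n = 2 each). Since the coding sequences differ at 10 bases, whether reads were assigned alike to both genes in the 4 libraries was not tested.

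**Figure D4:**
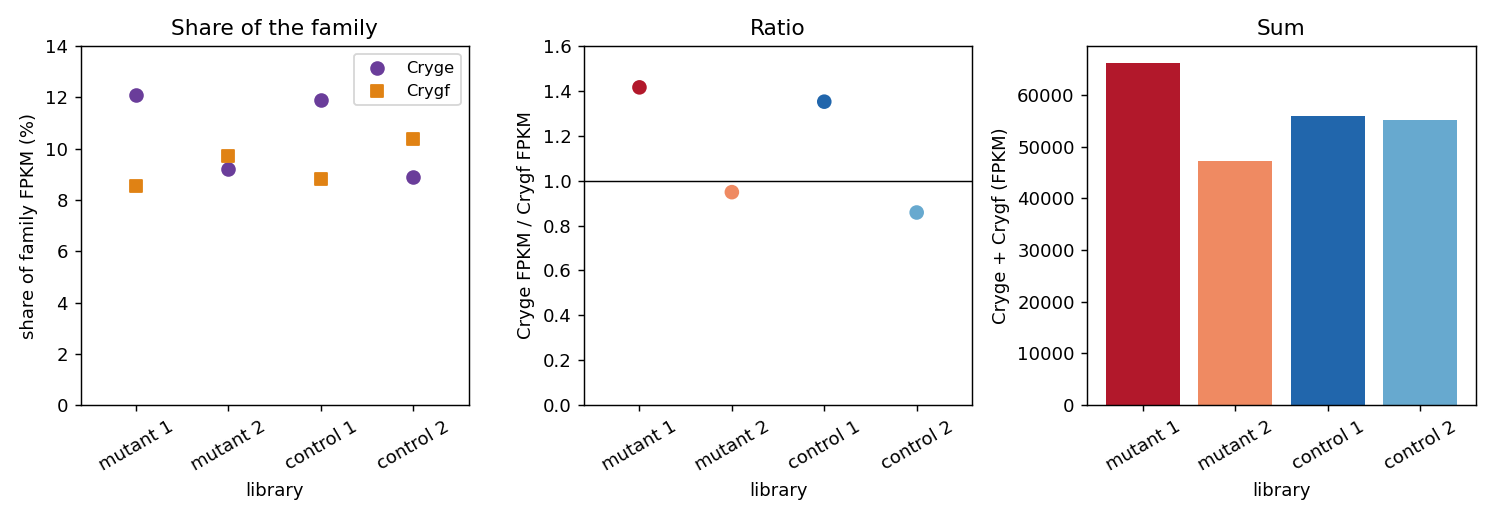
*Cryge* and *Crygf* in the 4 libraries, as the share of summed gamma crystallin FPKM of each gene in percent (left), the ratio of their FPKM (middle, with a line at 1) and their summed FPKM (right, bars from 0). The ratio is 1.42 and 1.35 in mutant 1 and control 1 and 0.949 and 0.858 in mutant 2 and control 2.

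No gamma crystallin gene differed between genotypes beyond the spread of the libraries. By limma on log2(FPKM + 0.1) with Benjamini-Hochberg adjustment over 15997 genes, 0 of the 8 members had an adjusted p under 0.05 (background 0.0375%, 6 genes) and 0 of 8 had an unadjusted p under 0.05 (background 6.31%). With voom on the recovered reads, 0 of 8 passed the adjusted threshold (background 0.0875%) and 1 of 8, *Cryga*, the unadjusted one (background 7.43%). On the log2 scale 5 members were above and 3 below 0, with a median difference of 0.0099, beside a median of 0.0041 over all genes tested, of which 8117 were above 0. This split rested on single libraries: without mutant 1 it was 1 above and 7 below, and without mutant 2 it was 8 above and 0 below. Bulk RNA cannot tell fewer fibre cells from less of these transcripts per fibre cell.

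*Cryga* had the highest estimate, a log2 fold change of 0.26 (SE 0.22, 95% interval -0.31 to 0.83, limma adjusted p = 0.811), or 24416 ± 3309 FPKM in the mutant against 20272 ± 705 in the control (SD, n = 2 each). The interval spans a 0.809-fold to a 1.78-fold level. Over the alternatives that kept all 4 libraries its adjusted p was between 0.642 (voom) and 0.952 (limma with no filter), although the unadjusted p by limma was 0.0236 after scaling to total reads. *Crygs* had the lowest estimate, -0.14 (SE 0.29, interval -0.88 to 0.59, limma adjusted p = 0.928), at 31319 ± 8485 FPKM against 33961 ± 2517.

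The other members lay nearer to 0 in their log2 fold changes. *Crygd* stood at 0.10 (interval -0.59 to 0.80), *Cryge* at 0.06 (-0.80 to 0.92), *Crygf* at -0.04 (-0.66 to 0.57), *Crygb* at 0.01 (-0.75 to 0.77) and *Crygc* at 0.0083 (-0.67 to 0.68). *Crygn* had the narrowest interval, -0.32 to 0.28 around -0.02, which allows between a 0.799-fold and a 1.22-fold level. For *Cryge* the interval allows a 0.574-fold to a 1.90-fold level, so changes inside that range remain compatible with these 4 libraries under this fit.

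**Figure D5:**
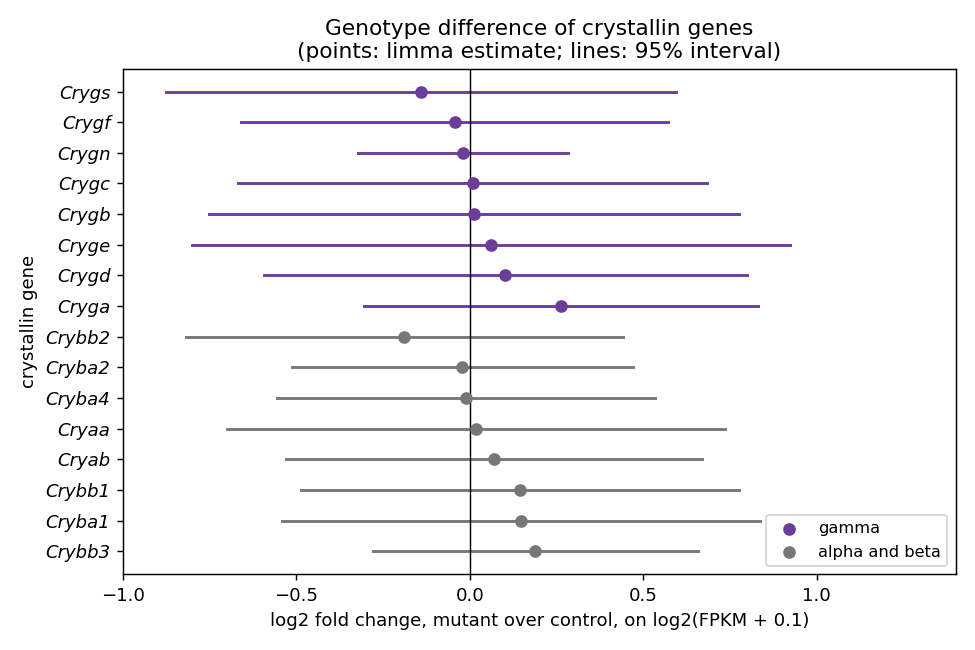
Log2 fold change, mutant over control, of the 8 gamma crystallin genes and the 8 alpha and beta crystallin genes, on log2(FPKM + 0.1), with points for the limma estimate and lines for its 95% interval. All 16 intervals cross 0, and the gamma estimates run from -0.14 for *Crygs* to 0.26 for *Cryga*.

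Across the 4 libraries 6 of the 8 members were highest in mutant 1, the exceptions being *Crygf* and *Crygn*, which were highest in control 2. Mutant 2 was lowest for *Crygb*, *Crygc*, *Cryge*, *Crygn* and *Crygs*, and control 1 was lowest for *Cryga*, *Crygd* and *Crygf*. *Crygb* and *Crygc*, which follow each other in the cluster, had the members' smallest root mean square distances to the profile of the family sum, 0.027 and 0.032 on the log2 scale, and *Cryge* had the farthest at 0.20. Members are part of that sum, *Crygb* and *Crygc* with large shares of it, so their distances are small in part by construction. *Cryab*, an alpha crystallin outside the sum, was at 0.026. Of 8362 genes outside the crystallins with a mean FPKM of at least 1, the genes whose profile over the 4 libraries lay nearest to the family sum were *Park7* (distance 0.0069), *Tax1bp3* (0.010) and *Chchd3* (0.011). *Park7*, which encodes the redox-sensitive protein DJ-1, measured 115 and 88.0 FPKM in the mutant libraries against 96.2 and 101 in the controls. These distances over 4 libraries are a description only.

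The alpha and beta crystallins, with which gamma crystallins are packed in the fibre, were equally without calls. Of 8 genes 0 passed the adjusted or unadjusted threshold, 5 were above and 3 below 0, and the median log2 fold change was 0.04. *Crybb3* was at 0.19 and *Crybb2* at -0.19 (limma adjusted p = 0.831 and 0.881). Of the 8 crystallin-related genes 5 were tested and 0 called, with *Cryz* at -0.11 and *Crybg1* at 0.24. Of these 5, 1 was above and 4 below 0, with a median of -0.08. The groups did not overlap for 3 with the mutant lower and 1 with the mutant higher, beside 36.6% of all genes tested in either direction.

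None of the 15 regulators listed for gamma crystallin genes passed either threshold, with 8 above and 7 below 0 and a median log2 fold change of 0.00014. They include *Maf* (58.4 FPKM in the mutant mean and 58.5 in the control mean), *Sox1* (36.1 and 33.5), *Sox2* (14.5 and 14.4), *Pax6* (6.91 and 6.90), *Prox1* (39.3 and 41.4) and *Hsf4* (163 and 144), transcription factors of the lens fibre programme. The smallest unadjusted p values of the list belonged to *Mab21l1* (log2 fold change -0.29, limma adjusted p = 0.811) and *Gata3* (-0.46, adjusted p = 0.811), whose mutant libraries both lay below the controls. The groups did not overlap for 6 of the 15 regulators (background 36.6%), with *Hsf4*, *Six3* and *Crebbp* higher and *Mab21l1*, *Gata3* and *Pitx3* lower in the mutant. Of the 4 RNA-binding genes of lens fibres 0 passed either threshold, with *Caprin2* at 0.32 and *Celf1* at -0.16 (limma adjusted p = 0.806 and 0.811).

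Among 13 fibre cell genes tested, 0 passed the adjusted threshold and 3 had an unadjusted p under 0.05 (background 6.31%), all lower in the mutant, with 8 above and 5 below 0 and a median of 0.02. *Lgsn*, lengsin of the fibre cell, measured 19.0 and 5.54 in the mutant libraries against 28.5 and 41.0 in the controls (log2 fold change -1.72, limma adjusted p = 0.769). *Jag1*, a Notch ligand of differentiating fibres, was at -0.25 (limma adjusted p = 0.769). The groups did not overlap for 3 of the 13 with the mutant lower, *Lgsn* and *Jag1* among them, and for 2 with the mutant higher. Over all genes tested, 36.6% did not overlap. The difference between these genes and the gamma crystallins was not tested. Of the 8 lens epithelium genes 1 was above and 7 below 0, with *Aqp1* at -0.62 (unadjusted p = 0.0177 by limma) and *Pdpn* at 0.34 (limma adjusted p = 0.717 and 0.811).

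Markers of other cell types gave 0 calls at the adjusted threshold by limma, and an unadjusted p under 0.05 (background 6.31%) was reached in the macrophage and mesenchyme lists. Of the 6 macrophage markers, *C1qa* (1.04 on the log2 scale) and *Cd68* (1.24) were tested, both at an unadjusted p under 0.05 and higher in the mutant, on 5 to 19 and 2 to 16 reads per library. Of the 3 mesenchyme markers tested, *Col1a1* was at 1.22 on 6 to 40 reads per library (unadjusted p = 0.0421 by limma) and *Rgs5* at -0.59 (unadjusted p = 0.0215 by limma). None of the other lists held a marker with an unadjusted p under 0.05, and their genes of smallest p were *Rcvrn* (0.75) and *Rbpms* (0.27) for retina, *Pmel* (-0.78) and *Tyrp1* (-0.48) for pigment cell and ciliary body, *Aldh3a1* (-0.42) for cornea, *Tie1* (-0.70) and *Tek* (-0.33) for endothelium and *Hba-a1* (-0.50) and *Hbb-bt* (-0.25) for blood. The part of these cell types in the gamma crystallin values was not tested.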

How the data were processed

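Poly(A) RNA of pooled lenses was sequenced in 4 libraries, 2 per genotype as labelled. Per the study's methods, alignment was by HISAT2 and gene counting by featureCounts at a sequencing provider, which derived FPKM, and the authors compared groups with DESeq2. The FPKM as deposited, on mm39 per the submitters' processing notes, were used unchanged, and 0 per-sample columns were left out. The 15997 of 56748 genes whose FPKM averaged 0.1 or more were fitted on log2(FPKM + 0.1), which understates changes of low genes, with limma 3.58.1 (lmFit, eBayes with trend, 2-sided) in R 4.3.3, with Benjamini-Hochberg adjustment and a threshold of 0.05. FPKM multiplied by gene length was a whole multiple of 1 step for 100% of values (tolerance 0.01), which gave whole reads. The FPKM denominators were 0.944 to 1.05 times these reads. The scripts were tested on simulated data.

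Transcript lengths, shared words and coding identity came from GENCODE transcripts on GRCm38, aligned with Biopython 1.88, and promoters from RefSeq. Same-numbered libraries did not deviate together (correlation -0.0051 over genes tested), so replicate numbers were not treated as pairs. Members and lists were chosen with earlier results of these data known. All 8 members, the 2 genes of smallest p per list, any list gene on which a statement turns, the 3 nearest profiles and the other genes of the cluster are named. A gene that this rule would take is not reported here. The regulators *Maf*, *Sox1*, *Sox2*, *Pax6*, *Prox1*, *Hsf4*, *Six3*, *Crebbp* and *Pitx3*, the fibre gene *Jag1*, *Cryab*, and *Xist* and *Eif2s3y*, are named beyond this rule, picked once their values were known. Alternatives were 2 other pseudocounts, 2 other filters, 3 scalings, voom on the recovered reads, limma without trend, a replicate block and leaving out each library. A sex-marker covariate, the transcript lengths and the *Cryge* to *Crygf* ratio were added after the values were seen.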

Additional observations from a re-analysis of the deposited data

How the results depend on the processing

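No gamma crystallin gene passed the adjusted threshold under the alternatives that kept all 4 libraries, and *Cryga* kept its direction in all 15 alternatives. Median-ratio scaling, with a factor of 1.00588 in every library, could not move the members' fold changes. Fits with a library left out keep 1 library in a group, so only their effect sizes are read here. After scaling to total reads the log2 fold changes of *Crygb* and *Crygc* turned to -0.020 and -0.023, and after scaling to non-crystallin reads to -0.00093 and -0.0040. At an unadjusted p under 0.05, the count of members went from 0 to 1 after scaling to total reads and to 1 with voom, *Cryga* in both. Leaving out each library in turn, where a lone library is assumed to vary like the other group, gave 0.12 to 0.40 for *Cryga*, -0.13 to 0.16 for *Crygb*, -0.16 to 0.17 for *Crygc*, -0.055 to 0.26 for *Crygd*, -0.31 to 0.44 for *Cryge*, -0.20 to 0.12 for *Crygf*, -0.057 to 0.017 for *Crygn* and -0.42 to 0.14 for *Crygs*. List medians then ran from -0.13 to 0.17 for gamma crystallins, -0.11 to -0.050 for crystallin-related genes (-0.11 after scaling to total reads), -0.089 to -0.0051 for the regulators and -0.13 to 0.091 for fibre cell genes. Over all genes, the 6 calls became 2 with a pseudocount of 1, 2 with a pseudocount of 0.01, 1 with no filter, 2 at a mean FPKM of at least 1, 14 with voom, 2 without the trend and 1 with the sex-marker covariate, and 0 to 0 with a library left out. With the replicate block 3 genes were called and no call on a gamma crystallin gene changed. Same-numbered libraries had deviations correlated at -0.0051, and at -0.11 over genes averaging 1 FPKM or more. With 2 pooled libraries per genotype, differences inside the intervals given remain compatible with these values under the main fit. The depth is not the limit for these genes, which rest on 26090 reads or more per library.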
